A study of Mus musculus with 6 samples.

Results

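The nuclear-encoded subunits of the oxidative phosphorylation machinery were followed in bone marrow of wild-type mice and of mice labelled Cbx2-/-. Cbx2 is a chromodomain protein of Polycomb repressive complex 1. The members are the 85 of 22838 genes in the deposited table whose names begin as those of complex I (Nduf), complex II (Sdh), complex III (Uqcr), complex IV (Cox4 to Cox8) or complex V (Atp5) subunits. They hold 36 genes of complex I, 4 of complex II, 8 of complex III, 20 of complex IV, 15 of complex V, and 2 matched by name only, Atp5s and Atp5sl. Ndufa4 and its isoform gene Ndufa4l2, named for complex I, were set with complex IV. RNA from the marrow of tibia and femur was sequenced in 3 wild-type and 3 Cbx2-/- mice, all aged 3 weeks and of the strain 129/C57BL/6. Wild-type mice weighed 12.3 g and Cbx2-/- mice 4.0 g on average. The labels describe neither the allele nor the sex of the animals, and the loss of Cbx2 is not said to be limited to any tissue. Cbx2 itself was still read at 2.11, 1.87 and 1.88 FPKM in the Cbx2-/- libraries, beside 2.90, 3.83 and 2.75 FPKM in wild type, a difference that did not pass the test used below (limma adjusted p = 0.0558). The title frames the question around bone-forming and fat-cell differentiation in the long bones after birth.

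Complexes I to IV form the respiratory chain of the inner mitochondrial membrane, which passes electrons from NADH and succinate to oxygen and pumps protons, and complex V, the ATP synthase, uses the proton gradient to make ATP. Most subunits are encoded in the nucleus and made in nearly every cell. Complex IV has a few small subunits with a second gene that is used in heart, skeletal muscle or brown fat. In marrow, the demand for respiration differs between stem cells, dividing precursors, maturing granulocytes and red cell precursors. The 13 subunits made from mitochondrial DNA were not analysed here.

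The subunit genes are known for promoters with sites for the factors NRF1 and GABP (an ETS-family factor), so their starts are shown first. RefSeq promoters (GRCm38.p6) were found for 67 of the 85 members, 72 promoters in all, and the 250 bases before each start were searched on both strands. The NRF1 core, a pair of GCGC runs with N and T between them, was in 14 of the 72 (19.4%), against 3.74% of 32851 promoters of all genes. The ETS core CCGGAAG was in 12 (16.7%), against 6.91%. Only Atp5h, Cox6a1 and Sdhd, subunits of complexes V, IV and II, had both, which is 4.17% of member promoters against 0.557% of all. Each line below gives 30 bases on the minus strand, with the matched core in capitals. The ETS core appears in its other-strand form, and the NRF1 core has A and N between the runs where the match is on the other strand.
Atp5h, NRF1 core (chr11:115420041-115420070): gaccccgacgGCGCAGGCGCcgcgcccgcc
Atp5h, ETS core (chr11:115419939-115419968): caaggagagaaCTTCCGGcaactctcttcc
Cox6a1, NRF1 core (chr5:115349101-115349130): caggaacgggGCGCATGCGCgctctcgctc
Cox6a1, NRF1 core (chr5:115349056-115349085): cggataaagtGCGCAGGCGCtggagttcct
Cox6a1, ETS core (chr5:115348959-115348988): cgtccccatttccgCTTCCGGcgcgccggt
Sdhd, NRF1 core (chr9:50603909-50603938): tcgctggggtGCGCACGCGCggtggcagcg
Sdhd, ETS core (chr9:50603877-50603906): ccgtctcctgcCTTCCGGttcacgcttcag
Cox8b, E-box (chr7:140900448-140900477): tgtgacaggagaCAGCTGcagctctccacc
The last line comes from Cox8b, a muscle-type isoform gene, whose window held neither core and held CAGCTG, the E-box form bound by myogenic factors. CAGCTG was in 6 of the 72 member promoters (8.33%), against 13.0% of all. GC content over the 250 bases was 69.6% for Atp5h, 62.8% for Cox6a1, 64.4% for Sdhd and 47.2% for Cox8b. A match describes these letters only.

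Values are FPKM (fragments scaled to transcript length and to the mapped fragments of the library), a relative measure that can be compared between genes because it is set per length. Of the 85 members, 83 passed the filter, which asks for 1 FPKM or more in 3 or more of the 6 libraries. The other two, Cox7b2 and Cox8c, isoform genes with expression known mainly from testis, were listed at 0 in every library. Together the members held 2.67% to 2.94% of the summed FPKM in wild-type libraries. Cbx2-/- replicates 1 and 2 had 2.67% and 3.02%, and replicate 3 had 1.70%. Among the 75 widely expressed subunit genes, the wild-type mean ran from 19.2 FPKM for Ndufa11, an accessory subunit of complex I, to 852 FPKM for Cox8a, the common form of a small complex IV subunit. The median wild-type level was 116 FPKM for complex I genes, 90.6 for complex II, 264 for complex III, 445 for complex IV and 433 for complex V.

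Across all 6 libraries, 1 subunit gene differed between the genotypes past the threshold and 82 did not. Cox8b rose, and none fell (limma on log2(FPKM + 1), adjusted p under 0.05). That is 1.2% of the 83 members, beside 17.1% of the 12006 tested genes called in either direction (8.8% higher and 8.31% lower). At an unadjusted p under 0.05, 1 member was higher and 1 lower, the latter being Atp5sl, against 17.4% and 15.1% of all tested genes. The median difference, Cbx2-/- minus wild type, was -0.17 (log2) over the members and 0.02 over all tested genes, and 71 of 83 members (85.5%) had a difference below 0, against 48.2% of all tested genes. For 58 of the 83 (69.9%, against 74.3% of all) the 95% interval of the difference lay within 1 log2 unit of 0, so a 2-fold difference was outside it. The groups did not overlap for 1 member that was higher and 3 that were lower, while 39.6% of all tested genes had groups apart.

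**Figure D1:**
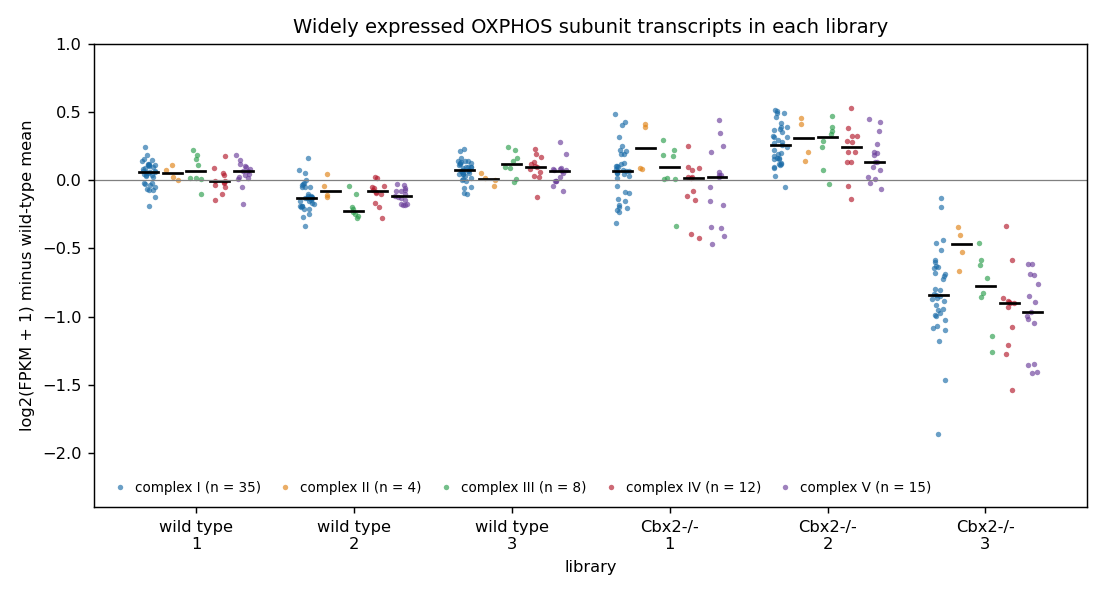
Each point is a widely expressed subunit gene in 1 library, plotted as log2(FPKM + 1) minus the wild-type mean, with colours for the 5 complexes and a bar at each complex's median. Ndufs5 is left out because its values ran opposite to those of a pseudogene that shares part of its sequence. Medians in Cbx2-/- replicate 3 lie between -0.47 (complex II) and -0.97 (complex V), below those of the other 5 libraries.

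The spread lay between the Cbx2-/- libraries. Over the 75 widely expressed genes, the median distance from the wild-type mean was 0.05 in Cbx2-/- replicate 1, 0.24 in replicate 2 and -0.86 in replicate 3 (log2). In the wild-type libraries it was 0.04, -0.12 and 0.08. Replicate 3 was the lowest of the 6 libraries for 76 of the 83 tested members (91.6%), against 33.6% of all tested genes. It was below every wild-type library for 78 members (94.0%), against 43.5%. Replicate 2 was above every wild-type library for 65 members (78.3%, against 42.8% of all tested genes) and replicate 1 for 29 (34.9%, against 42.3%). In replicate 3 the widely expressed genes stood at a median of 0.547 of their wild-type mean, from 0.268 for Ndufb2, an accessory subunit of complex I, to 0.908 for Ndufa10.

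Without replicate 3, 9 members rose and 0 fell, with a median difference of 0.12 (limma, adjusted p under 0.05). These 9 are 10.8% of the members, beside 17.2% of all tested genes called higher and 14.3% called lower in the same fit. When replicate 3 was set alone against the wild-type libraries, 67 members were lower and Cox8b was higher, with a median of -0.84. Without replicate 3 the medians of the complexes changed sign in 4 of 5, from -0.16 to 0.14 in complex I, -0.17 to 0.20 in III, -0.23 to 0.12 in IV and -0.25 to 0.07 in V, while that of complex II went from 0.03 to 0.27. The share called lower in replicate 3 alone, 80.7%, stands beside 22.6% of all tested genes called lower (17.0% were called higher). This fit takes the spread of the lone Cbx2-/- library from the wild-type libraries.

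Complex I takes electrons from NADH. None of its 36 genes passed the threshold, and their median difference was -0.16. Ndufs1, the gene of the largest subunit, which carries iron-sulfur clusters, was at 29.98, 26.7 and 31.1 FPKM in wild-type and at 31.5, 29.8 and 18.9 FPKM in Cbx2-/- libraries. Ndufv1, whose product binds NADH, was at 97.6, 85.1 and 98.2 FPKM and at 98.0045, 99.8 and 51.5 FPKM. In both genes replicate 3 lay below every wild-type library. Replicate 1 of Ndufs1 and replicate 2 of Ndufv1 lay just above every wild-type library, and the remaining replicate of each lay within the wild-type range. Ndufs3, Ndufs7, Ndufs8 and Ndufv2, which also encode core subunits, were likewise lowest in replicate 3, with differences between -0.34 (Ndufs8) and -0.06 (Ndufs3).

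The accessory genes of complex I covered the range of differences. Ndufb2, at the low end, was at 139, 126 and 119 FPKM in wild-type and at 111, 139 and 34.4 FPKM in Cbx2-/- libraries, a difference of -0.65 ± 0.46 (SE), or -0.04 without replicate 3. Ndufv3, at the high end, was at 109, 98.9 and 130 FPKM and at 157, 160 and 97.4 FPKM, a difference of 0.27 ± 0.24. Neither passed (limma adjusted p = 0.382 and 0.493), and the groups overlapped in both. Without replicate 3, Ndufv3, Ndufa10, Ndufa12 and Ndufc2 rose, by 0.50, 0.45, 0.47 and 0.39 (log2, limma adjusted p = 0.0280, 0.0263, 0.0198 and 0.0343).

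Ndufs5, a small complex I subunit gene (chromosome 4, 123712710 to 123718202), could not be read on its own. Its FPKM was 0.0905, 50.6 and 33.8 in wild-type and 0.141, 31.8 and 25.0003 in Cbx2-/- libraries, so replicate 1 of each genotype was near 0. BC002163, a processed pseudogene of Ndufs5 on chromosome 16, was at 37.6, 0.350 and 12.1 FPKM and at 41.5, 19.5 and 0.0120 FPKM, high where Ndufs5 was low. The sum of both was 37.7, 51.0 and 46.0 FPKM in wild-type and 41.7, 51.3 and 25.01 FPKM in Cbx2-/- libraries. With both counted together, replicate 3 was the lowest library, at 0.557 of the wild-type mean, close to the median of the other subunits. Of the 476 stretches of 50 bases, the read length, in the 525-base Ndufs5 transcript of GENCODE vM21, 196 occur unchanged in the pseudogene. The remaining stretches do not, and how reads were divided between both genes was not tested.

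Complex II, succinate dehydrogenase, also serves the citric acid cycle. None of its 4 genes passed, with a median difference of 0.03, and replicate 3 stood the least far below wild type here, at a median of -0.47. Sdha, the flavoprotein gene, was at 69.1, 71.5 and 67.0 FPKM in wild-type and at 73.7, 76.3 and 54.3 FPKM in Cbx2-/- libraries. Sdhd, a membrane anchor gene (chromosome 9, 50596357 to 50603812), was at 117, 100 and 108 FPKM and at 144, 149 and 81.6 FPKM. For all 4 genes replicates 1 and 2 lay above, and replicate 3 below, every wild-type library. Without replicate 3 the anchor genes Sdhc and Sdhd rose, 1.32-fold and 1.35-fold (limma adjusted p = 0.0235 and 0.0248), while the catalytic genes Sdha and Sdhb differed by 0.12 and 0.15 and did not pass.

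Complex III passes electrons from ubiquinol to cytochrome c. None of its 8 genes passed, with or without replicate 3. Uqcrfs1, the Rieske iron-sulfur protein gene, was at 97.2, 90.2 and 103 FPKM in wild-type and at 97.3, 102 and 62.5 FPKM in Cbx2-/- libraries. Uqcrh, the hinge protein gene, had the most negative difference, -0.41 ± 0.26 (SE), from means of 494 ± 77.2 and 380 ± 106 FPKM (wild type first, SD, n = 3 each), and did not pass (limma adjusted p = 0.329). Without replicate 3 it was -0.18. The groups overlapped for all 8 genes, and replicate 3 was the lowest library for each.

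Complex IV, cytochrome c oxidase, reduces oxygen. None of its 12 widely expressed genes passed, all 12 had a difference below 0, and the median was -0.23. Without replicate 3, 10 of the 12 were above 0 and the median was 0.12, so the direction rested on that library. Cox4i1, the common form of the largest nuclear-encoded subunit, was at 739, 589 and 835 FPKM in wild-type and at 721, 825 and 475 FPKM in Cbx2-/- libraries. Cox6a1, the common form of subunit VIa (chromosome 5, 115345642 to 115348981), was at 750, 813 and 853 FPKM and at 612, 732 and 277 FPKM. Its groups did not overlap, with replicate 2 only just below the lowest wild-type library, and its difference of -0.69 ± 0.36 (SE) did not pass (limma adjusted p = 0.229) and was -0.27 without replicate 3. Cox7a2l, which encodes a factor joining complexes III and IV, had another order of libraries. It was at 202, 195 and 211 FPKM and at 150, 196 and 160 FPKM, so replicate 1 and not replicate 3 was its lowest library.

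Complex V makes ATP. None of its 15 genes passed, and replicate 3 was the lowest library for all 15. Atp5b, the catalytic beta subunit gene, was at 664, 570 and 568 FPKM in wild-type and at 615, 642 and 371 FPKM in Cbx2-/- libraries. Atp5e, the epsilon subunit gene, had the most negative difference of the complex, -0.58 ± 0.36 (SE; -0.16 without replicate 3), with 885, 736 and 876 FPKM against 651, 843 and 311 FPKM. Atp5h, a stalk subunit gene (chromosome 11, 115415689 to 115419962), was at 515, 483 and 479 FPKM and at 355, 470 and 246 FPKM. The groups of Atp5h did not overlap, and its difference of -0.51 ± 0.26 (SE) did not pass (limma adjusted p = 0.218) and was -0.27 without replicate 3.

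The membrane ring of complex V is built from an identical protein made by 3 genes, and their shares differed little between libraries. Atp5g2 supplied 40.3%, 41.3% and 41.0% of their summed FPKM in wild-type and 42.9%, 41.6% and 43.3% in Cbx2-/- libraries. The Cbx2-/- values all lay above the wild-type ones. The two-sided exact permutation test returned p = 0.1, which is the floor for 3 libraries a group (0.225 adjusted over 9 ratios). In FPKM, Atp5g2 was at 440, 400 and 459 against 588, 581 and 254, and without replicate 3 it rose 1.35-fold (limma adjusted p = 0.0299). Atp5g1 and Atp5g3 were also above every wild-type library in replicates 1 and 2 and below them in replicate 3, and without replicate 3 their differences of 0.35 and 0.35 did not pass (limma adjusted p = 0.0846 and 0.0636).

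**Figure D2:**
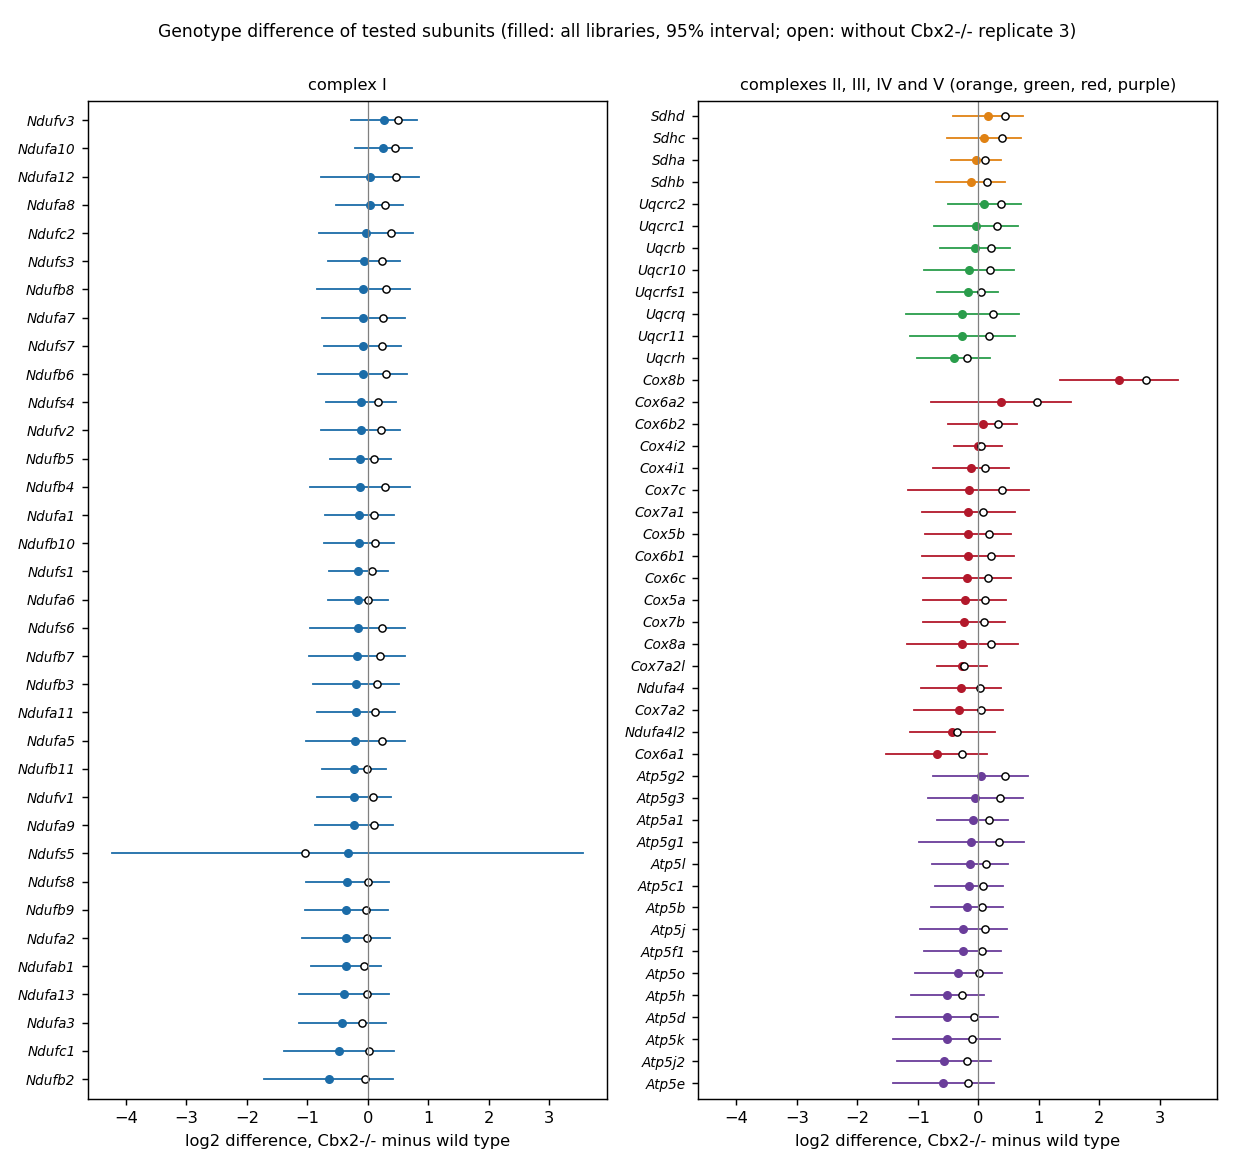
Filled points give the difference in log2(FPKM + 1), Cbx2-/- minus wild type, of the subunit genes shown over all 6 libraries with its 95% interval, and open points the difference without Cbx2-/- replicate 3. Colours mark the complexes. Cox8b at 2.32 stands clear of 0, and most open points lie to the right of the filled ones.

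Set apart from the common subunits, the muscle-type isoform genes were low in marrow, and each went its own way. Cox8b, the heart and skeletal muscle form of subunit VIII, which is also made in brown fat (chromosome 7, 140898945 to 140900446), was at 0, 0.792 and 1.19 FPKM in wild-type and at 9.33, 10.3 and 3.19 FPKM in Cbx2-/- libraries. All 3 Cbx2-/- libraries lay above all wild-type ones. Of the wild-type libraries only replicate 3 reached the 1 FPKM of the filter, so Cox8b entered the test through the Cbx2-/- libraries. The difference was 2.32 ± 0.42 (log2, SE, limma adjusted p = 0.00991), with means 11.5-fold apart, and 2.78 without replicate 3. Set alone against wild type, replicate 3 was 1.41 higher (limma adjusted p = 0.0235). Relative to Cox8a, the common form, Cox8b amounted to 0%, 0.107% and 0.138% in wild-type and 1.08%, 0.931% and 0.871% in Cbx2-/- libraries (exact permutation test, two-sided, p = 0.1, 0.225 adjusted over 9 ratios). On that scale the 3 Cbx2-/- libraries lay close together, and Cox8a was itself lowest in replicate 3, at 367 FPKM beside 862 and 1107.

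Cox6a2, the muscle form of subunit VIa (chromosome 7, 128205435 to 128206387), was at 7.78, 5.46 and 8.48 FPKM in wild-type and at 10.6, 21.0 and 3.53 FPKM in Cbx2-/- libraries. Replicates 1 and 2 were above and replicate 3 below the wild type, and the difference of 0.37 ± 0.50 (SE) did not pass (limma adjusted p = 0.673). Without replicate 3 it rose by 0.97 (limma adjusted p = 0.0282), and replicate 3 alone differed by -0.84 (limma adjusted p = 0.0221). Relative to Cox6a1, its common partner, Cox6a2 amounted to 1.04%, 0.671% and 0.994% in wild-type and 1.73%, 2.87% and 1.28% in Cbx2-/- libraries, above every wild-type library in all 3, replicate 3 included (exact permutation test, two-sided, p = 0.1, 0.225 adjusted over 9 ratios). The gene lies inside Itgad, an integrin gene on the opposite strand, which rose from 6.21, 8.58 and 5.70 FPKM to 24.5, 20.5 and 18.6 FPKM (limma adjusted p = 0.00221). No source used here gives the strand setting of the quantification, so reads of the pair may not have been told apart. Cox7a1, the muscle form of subunit VIIa, was at 3.66, 2.91 and 2.27 FPKM and at 1.79, 5.16 and 1.47 FPKM, with groups that overlapped and a difference of -0.16 ± 0.33 (SE, limma adjusted p = 0.788).

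Markers of cell types that use these isoforms moved in part with them. The 25 skeletal muscle markers summed to between 33.7 and 48.7 FPKM in wild-type libraries, and to 528, 596 and 26.9 FPKM in Cbx2-/- libraries. Acta1, the skeletal muscle actin gene, reached at most 1.48 FPKM in wild type, while the Cbx2-/- libraries had 79.1, 133 and 1.89 FPKM. None of the 10 tested muscle markers passed over all libraries, and 9 rose without replicate 3, beside 17.2% of all tested genes. Most of the listed muscle markers were high in Cbx2-/- replicates 1 and 2 alone, so a covariate made from the list largely sets those libraries aside. It gave Cox8b 1.43, close to the 1.41 of replicate 3 alone. It therefore adds no separate test of the part of muscle transcripts. In replicate 3, where the muscle sum was below every wild-type library, the FPKM of Cox8b was still above wild type and that of Cox6a2 was not. Single muscle markers went both ways in that library. Mylpf was at 7.89 FPKM, beside 16.6 to 20.6 FPKM in wild type. Tnni2, Tnnc2, Actn3, Atp2a1 and Myl1 were also below every wild-type library. Acta1, Tnnc1, Tnnt1, Ryr1, Neb, Ttn and Myot were above every wild-type library, Neb at 0.550 FPKM beside at most 0.0324 FPKM. The part of muscle transcripts in the Cox8b value was not tested. The 9 brown fat markers summed to between 8.93 and 13.6 FPKM in wild-type and to 4.77, 5.51 and 12.2 FPKM in Cbx2-/- libraries. The 1 tested, the amino acid transporter gene Slc36a2, fell from 10.3 ± 2.50 to 3.75 ± 1.39 FPKM (SD, n = 3 each, limma adjusted p = 0.0140). Slc36a2 made up most of the wild-type sum, at 10.7, 12.7 and 7.69 FPKM, so the sum does not speak for the list. Dio2, another brown fat marker, went the other way and did not reach the filter. It was at 0.648, 0.506 and 0.666 FPKM in wild-type and at 1.80, 0.957 and 1.57 FPKM in Cbx2-/- libraries. Of the defining ones, Ucp1 reached at most 0.0581 FPKM and Elovl3 at most 0.317 FPKM in any library, and Cidea was at 5.14 FPKM in Cbx2-/- replicate 3 and at most 0.0886 FPKM elsewhere. The 7 cardiac markers summed to 1.37 to 3.70 FPKM in wild-type and 1.54 to 5.88 FPKM in Cbx2-/- libraries, with Myh6 and Nppa at most 0.0624 and 0.155 FPKM. The 12 white fat markers summed to 360 to 571 FPKM and 2185 to 2842 FPKM, and 9 of 11 tested ones rose, beside 8.8% of all tested genes.

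**Figure D3:**
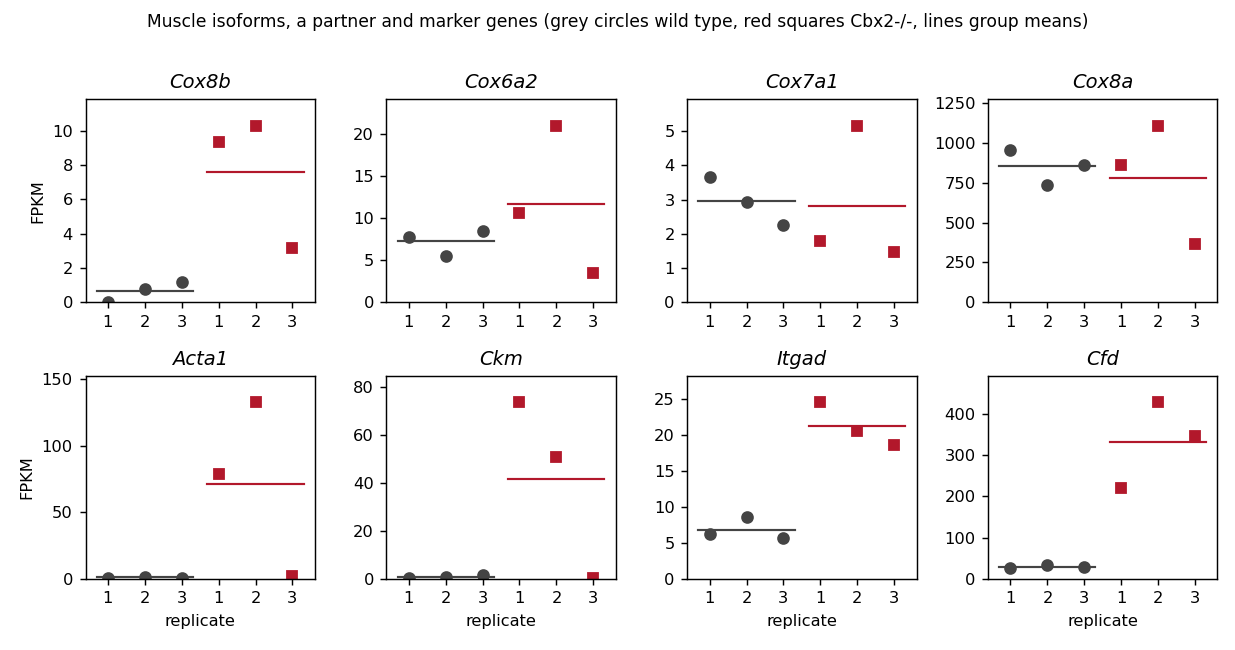
FPKM in each library (grey circles wild type, red squares Cbx2-/-, lines group means, linear axes that start at 0 and differ between panels) for 3 muscle-type isoform genes, the common isoform gene Cox8a, the muscle genes Acta1 and Ckm, Itgad, which overlaps Cox6a2, and the fat-cell gene Cfd. Cox8b is above wild type in all 3 Cbx2-/- libraries, including replicate 3, where Acta1 is at 1.89 FPKM and Ckm at 0.460 FPKM.

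The other isoform genes did not pass. Cox6b2, a form of subunit VIb known from testis, was high for a restricted isoform, at 135, 128 and 141 FPKM in wild-type and 150, 191 and 99.6 FPKM in Cbx2-/- libraries. It amounted to 25.5%, 25.5% and 24.2% of Cox6b1, the common form, in wild-type and to 26.1%, 28.4% and 35.4% in Cbx2-/- libraries (exact permutation test, two-sided, p = 0.1, 0.225 adjusted over 9 ratios). Cox4i2, the form known from lung and low oxygen, was between 2.17 and 3.45 FPKM in all libraries, with a difference of 0.00 ± 0.17 (SE). Ndufa4l2, a gene induced by low oxygen, was at 4.89, 4.49 and 1.71 FPKM in wild-type and at 1.93, 3.12 and 1.97 FPKM in Cbx2-/- libraries, and the groups overlapped. Of the genes matched by name only, Atp5sl, which encodes a complex I assembly factor, was at 13.0, 15.2 and 17.5 FPKM and at 8.93, 12.4 and 10.3 FPKM. Its groups did not overlap and its difference of -0.49 ± 0.17 (SE) did not pass (limma adjusted p = 0.0865), with nearly the same size, -0.48, without replicate 3.

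To compare the subunits with one another, each library was also centred on the median of the widely expressed subunits, a scaling chosen after the data were seen. It raised the median difference of all tested genes to 0.23, and it left Cox8b as the 1 member called, higher by 2.54 (limma adjusted p = 0.00618), beside 4.02% of all tested genes called. Without replicate 3 and with the same centring, Cox8b, Cox6a2 and Ndufa12 were higher and Atp5h and Atp5sl lower, beside 27.5% of all tested genes.

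Replicate 3 was also low for other genes expressed at similar levels. Between 50 and 200 FPKM in wild type, the 37 members had a median of -0.84 in replicate 3, the 24 mitochondrial ribosome genes -0.94 and the 1188 other genes -0.58, with the middle 50% of these other genes between -1.03 and -0.14. Between 200 and 1000 FPKM, the 34 members had -0.90 and the 243 other genes -0.64. Other genes between 1 and 10 FPKM had a median of 0.13 in this library. Members have short transcripts, with a median GENCODE length of 595 bases against 1341 bases for tested genes. Other genes from 50 to 200 FPKM with a median transcript under 1000 bases had -0.59 in replicate 3, and those of 2000 bases or more had -0.53.

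**Figure D4:**
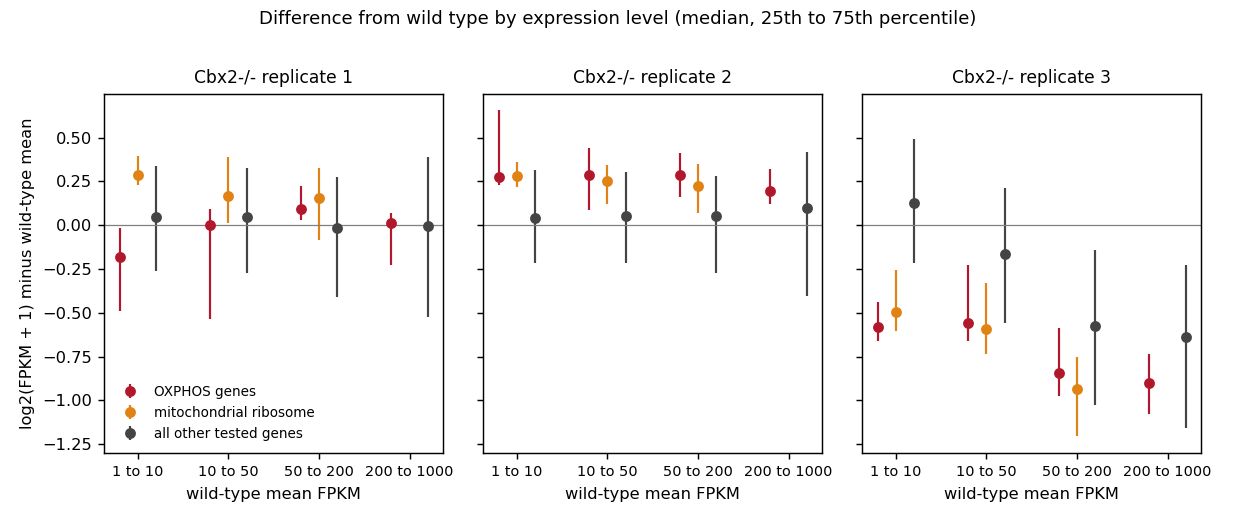
Median and 25th to 75th percentile of log2(FPKM + 1) minus the wild-type mean in each Cbx2-/- library, for subunit genes, mitochondrial ribosome genes and all other tested genes, by wild-type mean FPKM. In replicate 3 all 3 sets lie lower above 50 FPKM than below it, and the subunit genes from 50 to 200 FPKM lie at -0.84 beside -0.58 for other genes.

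Cell-type and division markers differed between libraries as well, and their part in the subunit values was not tested. The calls below stand beside 8.8% of all tested genes called higher and 8.31% called lower. In bulk marrow, fewer cells of a type and less RNA per cell cannot be told apart. The 20 proliferation genes, 4 of which fell, summed to 2982 to 3343 FPKM in wild-type libraries. In Cbx2-/- libraries they summed to 1927, 2274 and 889 FPKM, lowest in replicate 3. Their medians there were -0.55, -0.38 and -1.60 (log2 from the wild-type mean). Mki67, which was called lower, did not share that order, at 58.9, 59.3 and 59.2 FPKM. The 21 erythroid markers, 17 of which fell, summed to 4494 to 5434 FPKM and to 2154, 2135 and 2678 FPKM. In replicate 3, Alas2 alone made up 1534 FPKM of that sum, beside 940 and 494 FPKM in replicates 1 and 2. The median distance of the erythroid markers from the wild-type mean was -1.46, -1.20 and -1.69 (log2) in Cbx2-/- replicates 1, 2 and 3, lowest in replicate 3. The early B cell markers, 14 of 15 of which fell, summed to 1058 to 1329 FPKM and to 129, 117 and 242 FPKM. Of 14 tested neutrophil markers, 7 rose, and their sums were 39045 to 44175 FPKM and 80207, 86460 and 58759 FPKM. Haemoglobin transcripts took 13.9% to 17.8% of the summed FPKM in wild-type libraries and 10.9%, 7.02% and 20.5% in Cbx2-/- libraries. With haemoglobin genes left out of the total, the members' share was 3.14% to 3.42% in wild-type and 2.99%, 3.25% and 2.14% in Cbx2-/- libraries, still lowest in replicate 3. The haematopoietic genes used to check the tissue label were expressed in every library.

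Genes that assemble, feed or regulate the complexes were read from lists. Over all libraries, 17.1% of all tested genes passed the threshold. Of the lists, 0 of 10 electron carriers and unmatched subunits and 1 of 13 complex I assembly factors passed. For complexes II and III 0 of 8 assembly factors passed, for complex IV 2 of 22 and for complex V 0 of 3. The complex I assembly gene was Nubpl, which delivers iron-sulfur clusters and rose from 3.70, 4.62 and 4.68 FPKM to 7.54, 6.31 and 6.30 FPKM (limma adjusted p = 0.0364). For complex IV, Cox11, a copper chaperone gene, fell from 6.81, 8.70 and 6.35 FPKM to 4.58, 4.34 and 2.83 FPKM (limma adjusted p = 0.0294). Sco2, another copper chaperone gene, rose from at most 1.23 FPKM to between 1.65 and 2.26 FPKM (limma adjusted p = 0.0437). Like Cox8b, Sco2 passed the filter only through the Cbx2-/- libraries, with wild-type replicates 2 and 3 at 0 and 0.218 FPKM. In all 3 genes the groups did not overlap, as was the case for 39.6% of all tested genes.

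None of the 13 citric acid cycle genes, 7 tested exchange and uncoupling genes or 15 tested regulators of mitochondrial gene expression passed, and 1 of 77 mitochondrial ribosome genes, Mrpl49, fell. The ribosome genes shared the order of the libraries with the subunits, with medians of 0.18, 0.24 and -0.67 in Cbx2-/- replicates 1, 2 and 3, while the medians of the regulators were 0.00, -0.04 and -0.09. Without replicate 3, 2 of the 15 regulators fell, beside 14.3% of all tested genes called lower in that fit. They were Nrf1, lower by 0.40 (limma adjusted p = 0.0465), and Gabpb2, a GABP subunit gene, lower by 0.43 (limma adjusted p = 0.0264). Over all libraries Nrf1 did not pass (limma adjusted p = 0.0673). It was at 24.96, 20.5 and 20.5 FPKM in wild-type and at 15.4, 17.2 and 11.7 FPKM in Cbx2-/- libraries. Its groups were separate, as were those of 39.6% of all tested genes. Over these assembly, metabolic, regulator and ribosome lists, the 2 higher calls became 0 without Cbx2-/- replicate 1 or 2 or wild-type replicate 2 or 3. They became 1 without wild-type replicate 1 and 27 without Cbx2-/- replicate 3. Of the 27, 11 were among the 77 ribosome genes, and 17.2% of all tested genes were called higher in that fit. The 2 lower calls became 0 without any 1 wild-type library, and 1, 5 and 7 without Cbx2-/- replicates 1, 2 and 3. Replicate 3 alone was lower for 53 of the 77 ribosome genes (68.8%) and 4 of the 15 regulators (26.7%), beside 22.6% of all tested genes. Ppargc1a, a coactivator gene of mitochondrial biogenesis, reached at most 0.0825 FPKM in any library. Tfam, the mitochondrial DNA packaging factor gene, was at 8.75, 10.3 and 9.07 FPKM in wild-type and at 7.51, 7.58 and 5.75 FPKM in Cbx2-/- libraries, with separate groups and a difference of -0.39 ± 0.15 (SE) that did not pass (limma adjusted p = 0.109). Atpif1, which encodes the inhibitor of ATP synthase and is known for a role in haem synthesis, was at 1189, 1071 and 1166 FPKM and at 742, 933 and 321 FPKM, again with separate groups and no call over all libraries (limma adjusted p = 0.145). Without replicate 3 it fell by 0.45 (limma adjusted p = 0.0485). Ucp2, an uncoupling protein family gene, was at 1156, 1151 and 1196 FPKM and at 840, 875 and 684 FPKM (limma adjusted p = 0.109), and without replicate 3 it fell by 0.45 (limma adjusted p = 0.0277).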

How the data were processed

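The authors deposited 1 table of FPKM values for 22838 genes in 6 libraries of bone marrow RNA. Per the labels' protocols, libraries were stranded, poly(A)-selected and read as 50-base single reads. Cufflinks 2.2.1, TopHat2 2.1.0, FastQC 0.11.5 and the build mm10 come per the submitters' processing notes, without roles or settings. No source used here gives the gene annotation or the strand setting. Read totals are unknown; the summed FPKM per library was 599601 to 741192, and values below that of a few reads are imprecise.

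Values were tested as log2(FPKM + 1), which understates changes of low genes, for the 12006 genes that reached 1 FPKM in 3 or more of the 6 libraries. The test was limma 3.58.1 in R 4.3.3 (two-sided, with a mean-variance trend). P-values were adjusted by Benjamini-Hochberg over the 12006 genes, with 0.05 as the threshold. The test was also run on simulated data with independent noise for each gene. These data held no shift of a whole library like that of Cbx2-/- replicate 3, so the run does not bear on it. Isoform ratios were compared with exact permutation tests (scipy 1.17.1). Folds are ratios of mean FPKM, without the pseudocount. The members, gene lists, tests and the rule for named genes (isoforms with their partners, core subunits, called members, each complex's extremes and the called genes of each pathway list) were chosen with earlier results of these data known. Values of members that overlap another protein-coding gene (24 of 83 with a position) are uncertain. Positions are from GENCODE vM21 (GRCm38). Other scalings, filters, pseudocounts, limma settings, covariates, a replicate block and leaving out libraries were tried. The values of 1 member are counted in the totals and not reported singly here. Deposited confidence limits were equal to each other and were not used.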

Additional observations from a re-analysis of the deposited data

How the results depend on the processing

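Cox8b stayed called in every alternative that tested it, but these are refits of the same 6 libraries and add no separate support. A filter of 5 FPKM removed it, leaving 0 subunits and 0 muscle isoforms called higher. Leaving out 1 library gave 1 to 9 higher subunit calls, and the highest, 9, came without Cbx2-/- replicate 3, where 2 muscle isoforms were called. In that fit 17.2% of all tested genes were called higher. Ndufc2, at -0.03 with all libraries, ranged from -0.27 (without replicate 2) to 0.39 (without replicate 3). Lower calls among subunits were 67 with a covariate for skeletal muscle markers, where the median difference was -0.79. No share of all tested genes is given for that fit, so the count is not read as particular to subunits. With Cbx2-/- replicates 1 and 2 left out, the median difference was -0.84. In these fits, respectively, Atp5g2 turned to -0.69 and -0.76, Ndufa12 to -0.77 and -0.84 and Sdhc to -0.47 and -0.53, and in the latter Cox6a2 turned to -0.84. The latter fit holds replicate 3 as its only Cbx2-/- library, and the covariate is high in Cbx2-/- replicates 1 and 2 alone, so both rest on replicate 3. With haemoglobin genes removed, 1 subunit was lower, Atp5h, and the cause was not tested. Centred on the subunits' own median without replicate 3, a setting chosen after seeing the data, 3 were higher and 2 lower, and 2 muscle isoforms were higher. Of the pathway genes, 2 were higher and 2 lower with the settings of the report. The share of all tested genes called also changed between fits. It was 4.02% with centring and 27.5% with centring and without replicate 3, either direction. Without replicate 3 alone, 17.2% were called higher and 14.3% lower. Counts below from fits without such a share are not read as results about these genes. Higher calls were 1 with a pseudocount of 0.1 or 0.5, a filter of 5 FPKM, haemoglobin removed, the sex pattern covariate or centring on the subunits, 0 with no filter, the muscle covariate or replicate 3 alone, 14 with centring and without replicate 3, and 0 to 27 with 1 library left out. Lower calls were 1 with centring, 0 with no filter or the sex covariate, 7 with haemoglobin removed, 6 with quantile normalization, 5 with an equal sum, 10 with centring and without replicate 3, 87 with the muscle covariate, 87 with replicate 3 alone, and 0 to 7 with 1 library left out. The replicate numbers did not pair the libraries throughout. Deviations of same-numbered libraries correlated at 0.19, -0.18 and -0.10, and only replicate 1 of each genotype correlated best with its own number. With the replicate block, 1 subunit was higher (Cox8b) and 0 lower, and 1 pathway gene was higher and 1 lower. Depth limits what can be said of isoforms near 1 FPKM.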

Other observations

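The pair of Ndufs5 and its pseudogene row BC002163 was found by looking for genes below 1 FPKM in any 2 libraries and above 10 FPKM in the other 4. Over all 15 pairs of libraries this pattern held for 3 genes: Ndufs5 and Xist in replicate 1 of both genotypes, and BC002163 in wild-type replicate 2 and Cbx2-/- replicate 3. Xist, the RNA that coats the inactive X chromosome, was at 0.0151 FPKM in wild-type replicate 1 and 0.462 FPKM in Cbx2-/- replicate 1. Eif2s3y, a gene of the Y chromosome, was at 20.7 and 21.6 FPKM in the same libraries and at most 0.0763 FPKM elsewhere, so replicate 1 of both genotypes shared this pattern. Whether the mix of sexes bears on any subunit value was not tested beyond the covariate fit, in which the same number of subunits was called. Cidea, a lipid droplet gene used here as a brown fat marker, stood at 5.14 FPKM in Cbx2-/- replicate 3 and at most 0.0886 FPKM in the other 5 libraries, a value from 1 library with no replicate.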
